A study of Rattus norvegicus with 48 samples.

Results

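Actb and Gapdh are 2 genes whose transcripts are commonly used as the reference against which other transcripts are measured, and their levels were followed here in the livers of 48 rats on a steatohepatitis or a control diet. Actb (ENSRNOG00000034254) and Gapdh (ENSRNOG00000018630) were chosen by their Ensembl identifiers, as 2 of the 32662 genes in the deposited tables. The rule of the choice used no measured value, but it was made with earlier results of these data known. Its aim was to see whether common reference genes hold a constant level in this diet model. The animals were male rats of the Wistar stock RjHan:WI, bought at an age of 6 weeks. They received an amino acid-defined diet that lacks choline and holds 1% cholesterol, called CDAA in the following and written CDDA Cholesterol 1pc in the labels, or the choline-supplemented control diet CSAA. CDAA held 31% of its energy as fat, 11% as protein and 58% as carbohydrate with 0.17% methionine. CSAA held 16% fat, 12% protein and 72% carbohydrate with 0.4% methionine. For CSAA no cholesterol supplement is stated. Livers were taken after 4, 8 and 12 weeks from 8 animals per diet and week, each animal at 1 time point only. Between weeks, time on the diet cannot be told apart from age and time of collection. Fat, carbohydrate, protein, methionine, choline and added cholesterol differ together between the diets, and their parts cannot be told apart.

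Actb encodes cytoplasmic beta actin, a main building block of the actin cytoskeleton, which gives cells their shape and carries their movement and contraction. Gapdh encodes glyceraldehyde-3-phosphate dehydrogenase, the enzyme of glycolysis that oxidises glyceraldehyde-3-phosphate while reducing NAD+. Both are transcribed in nearly all cells, and a transcript measured by quantitative PCR is often divided by one of them, which presumes that the reference does not respond to the treatment.

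RNA-Seq counted 13619274 to 22284359 reads on genes per animal. Of these, 3611 to 22078 fell on Actb and 3169 to 7676 on Gapdh, so that the error of counting was at most 1.66% for Actb and 1.78% for Gapdh in any animal. The spread between animals was larger, with coefficients of variation of the scaled levels of 4.03 to 24.5% within groups. Measured per gene length as RPKM (read counts divided by gene length and library size), Actb ranked 169 and Gapdh 286 by mean level. The rank was taken among all genes with deposited values. Reads that match a copy of a gene elsewhere in the genome equally well cannot be placed. RefSeq lists 81 loci named as Gapdh pseudogenes and 10 named as Actb pseudogenes in the rat assembly GRCr8, so that the counts of both genes may miss reads, which was not tested. On the first principal component of all genes, 4 animals stood apart from their groups. These were animal 303 of CDAA at week 4, 504 of CSAA at week 8, 908 of CSAA at week 12 and 1102 of CDAA at week 12. Their scores were 40.1, -3.85, 1.61 and -58.4, where the medians of their groups were -39.1, 64.5, 61.4 and -85.6. The 4 animals were a fixed list without a numerical rule. Animal 502 of CSAA at week 8, with a score of 35.2, was not listed, although it lay farther from its group median than animal 1102. The liver was not checked against marker genes, since the tables list identifiers without names.

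Scaling decides what a level means in these livers, and both genes are therefore given in 2 ways. With library size scaling, the reads on a gene are divided by all reads on genes of the animal and given per 1000000 reads (CPM). TMM scaling additionally multiplies the library size by a factor that centres the bulk of the genes. The TMM factors lay between 0.718 and 1.01 on CSAA and between 0.827 and 1.43 on CDAA. The mean log2 factor was higher on CDAA by 0.40, 0.61 and 0.82 at weeks 4, 8 and 12. The most abundant gene of each animal took 9.88 to 14.3% of the reads on CSAA and 6.58 to 12.4% on CDAA, and its part in the factors was not tested. The median log2 fold change of all tested genes between the diets was accordingly -0.02, 0.05 and -0.09 at weeks 4, 8 and 12 with TMM and 0.39, 0.65 and 0.73 with library size.

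Actb was higher on CDAA than on CSAA at each week, 1.95-fold at week 4, 1.94-fold at week 8 and 1.78-fold at week 12 with TMM scaling. At week 4, Actb lay between 331 and 484 CPM on CSAA (median 374) and between 482 and 887 CPM on CDAA (median 784). At this week, 7 of 8 CDAA animals were above all CSAA animals, and animal 303 at 482 CPM was the exception. At week 8, the range was 301 to 486 CPM on CSAA (median 381) and 649 to 777 CPM on CDAA (median 733). At week 12, it was 307 to 495 CPM on CSAA (median 393) and 648 to 754 CPM on CDAA (median 705). At both of these weeks the diets did not overlap. The share of all tested genes without overlap was not counted, with either scaling. The highest CSAA values of weeks 8 and 12 belonged to animals 504 and 908.

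The log2 fold change of Actb (95% confidence interval) was 0.96 (0.76 to 1.17) at week 4, 0.95 (0.75 to 1.16) at week 8 and 0.83 (0.63 to 1.04) at week 12. The adjusted p values were 6.68e-11, 1.78e-11 and 4.65e-10 in edgeR's quasi-likelihood test with Benjamini-Hochberg adjustment over all 12756 genes, so that Actb rose at every week at the threshold of 0.01. This threshold was passed by 54.2%, 67.4% and 69.3% of all tested genes at weeks 4, 8 and 12. Adding the fold change threshold of the study, 1 or more on the log2 scale in either direction, left 19.9%, 30.2% and 30.7% of genes, and Actb was not among them with TMM. Its log2 fold change was above that of 83.02%, 80.8% and 77.9% of the tested genes. Without the 4 animals that stood apart, it came to 1.06, 1.06 and 0.97, which passes both thresholds at weeks 4 and 8. With upper quartile factors in place of TMM it was 1.07, 1.15 and 1.08, past both thresholds at each week.

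With library size scaling, the difference in Actb was larger and the diets did not overlap at any week. The CSAA animals lay between 225 and 489 CPM over the 3 weeks, and the CDAA animals between 399 and 1065 CPM. Animal 303 had the lowest CDAA value, with 399 CPM where the other 7 animals of its group had 737 to 1034 CPM. The log2 fold changes were 1.40, 1.55 and 1.64, or 2.63-fold, 2.92-fold and 3.12-fold, with adjusted p values of 6.13e-12, 1.13e-13 and 1.29e-14 (edgeR's quasi-likelihood test). Of all tested genes, 61.1%, 78.2% and 79.6% passed the threshold on p at weeks 4, 8 and 12 with this scaling, and 25.2%, 37.9% and 40.5% also the threshold on the fold change, Actb among them at each week. Relative to the median of all genes, the log2 difference of Actb was 1.00, 0.89 and 0.91 with library size and 0.98, 0.90 and 0.92 with TMM.

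**Figure D1:**
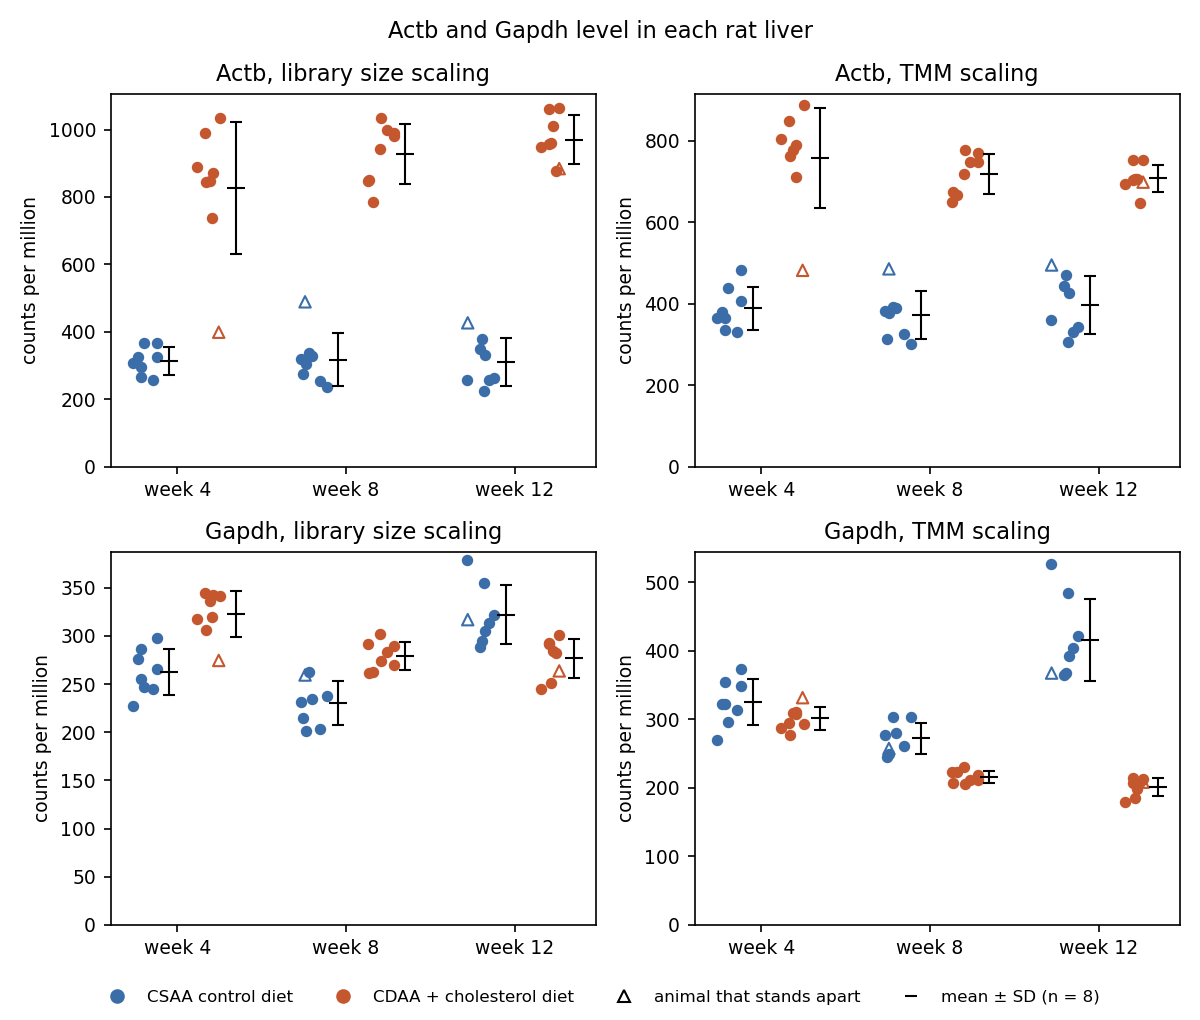
Level of Actb (upper row) and Gapdh (lower row) in each liver, in CPM with library size (left) and TMM scaling (right), by week. Each point is 1 animal, triangles are the 4 animals that stood apart, and the bars give the mean and SD of 8 animals. Actb lies higher on CDAA in all panels, whereas for Gapdh the side on which CDAA lies depends on the scaling at weeks 4 and 8 and is the lower side in both at week 12.

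The direction of the diet effect on Gapdh depended on the scaling at weeks 4 and 8. With TMM scaling, Gapdh was 0.927-fold of the control at week 4, 0.795-fold at week 8 and 0.485-fold at week 12. At week 4, Gapdh lay between 270 and 374 CPM on CSAA (median 322) and between 277 and 332 CPM on CDAA (median 302), and all CDAA animals were within the range of CSAA. At week 8, the range was 245 to 304 CPM on CSAA (median 269) and 206 to 231 CPM on CDAA (median 215). At week 12, it was 365 to 528 CPM on CSAA (median 398) and 180 to 215 CPM on CDAA (median 208). The diets did not overlap at weeks 8 and 12, and the gap between them was wider at week 12. How many of all tested genes lacked overlap was not counted, and 67.4% and 69.3% passed the threshold on p at these weeks.

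The log2 fold change of Gapdh (95% confidence interval) was -0.11 (-0.25 to 0.03) at week 4, -0.33 (-0.47 to -0.19) at week 8 and -1.04 (-1.18 to -0.91) at week 12. The adjusted p values of edgeR's quasi-likelihood test were 0.156, 3.01e-05 and 1.84e-17. Gapdh therefore fell at weeks 8 and 12 with TMM, and at week 12 also by the threshold on the fold change. It did not pass this last threshold with RLE factors (-0.95), DESeq2 (-0.95), upper quartile factors (-0.80), the animals of week 12 alone (-0.95) or without the 4 animals that stood apart (-0.99), where the fall itself was still called. At week 4 no change was called, and the interval leaves room for a level down to 0.844-fold. The log2 fold change of Gapdh was above that of 43.4%, 32.4% and 10.5% of the tested genes at weeks 4, 8 and 12.

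Library size scaling turned the direction of the diet effect on Gapdh at weeks 4 and 8. At week 4, Gapdh then lay between 227 and 298 CPM on CSAA (median 260) and between 274 and 344 CPM on CDAA (median 328). At week 8, the range was 202 to 262 CPM on CSAA (median 233) and 261 to 302 CPM on CDAA (median 278). At each of these weeks 7 of 8 CDAA animals were above all CSAA animals. At week 12, CSAA held 289 to 379 CPM (median 315) and CDAA 245 to 301 CPM (median 283), and 5 of 8 CDAA animals were below all CSAA animals.

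On this scale Gapdh rose by a log2 fold change of 0.30 (0.17 to 0.43) at week 4 and 0.28 (0.15 to 0.40) at week 8 and was at -0.22 (-0.35 to -0.09) at week 12. All 3 changes passed the threshold on p, with adjusted p values of 6.33e-05, 0.000126 and 0.00175 (edgeR's quasi-likelihood test), and none the threshold on the fold change. With this scaling, 61.1%, 78.2% and 79.6% of all tested genes passed the threshold on p at weeks 4, 8 and 12. Both thresholds were passed by 25.2%, 37.9% and 40.5%. Relative to the median of all genes, the log2 difference of Gapdh was -0.09, -0.38 and -0.95 with library size and -0.09, -0.38 and -0.96 with TMM. The RPKM values, which the authors scaled to library size, gave 0.30, 0.28 and -0.22 in limma on log2(RPKM + 0.1).

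**Figure D2:**
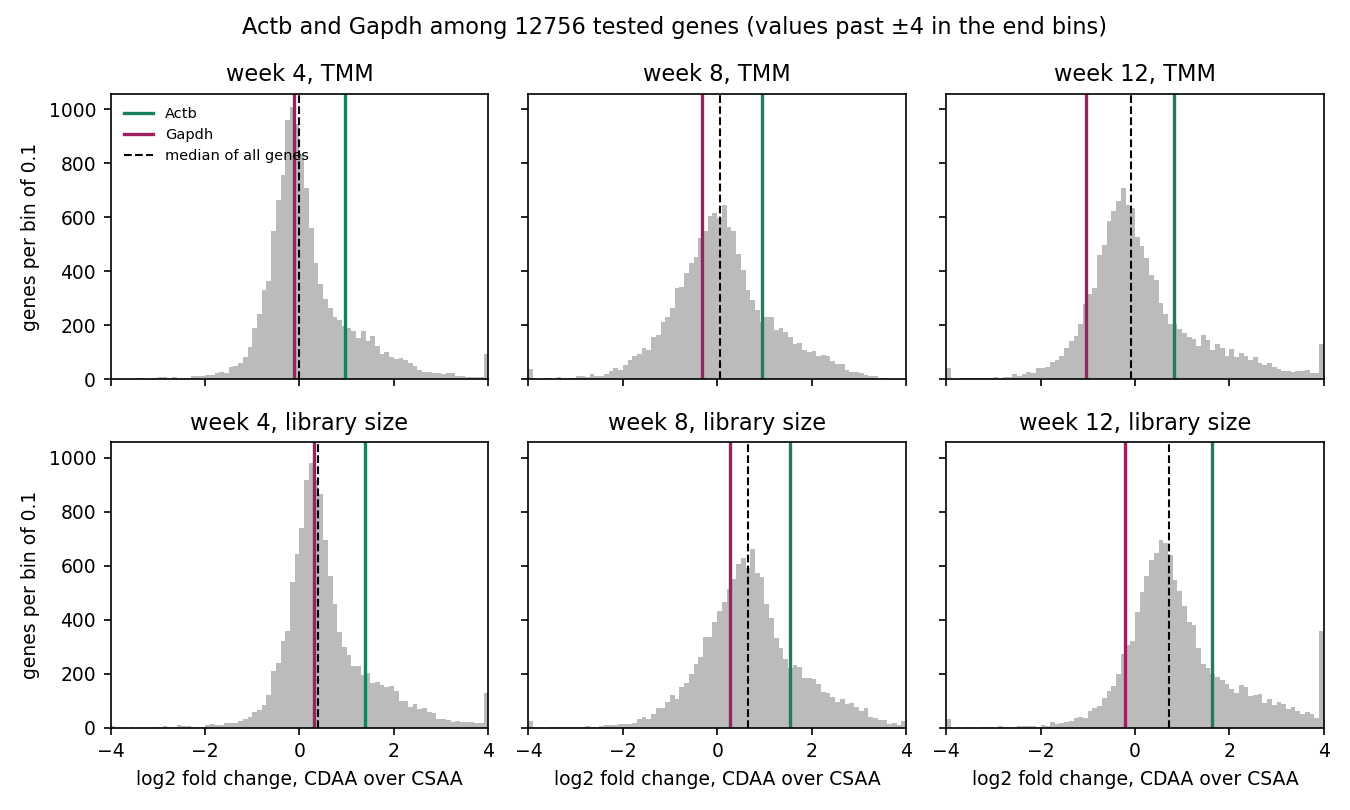
Distribution of the log2 fold change between CDAA and CSAA over all 12756 tested genes (x axis, bins of 0.1; y axis, genes per bin) with the values of Actb and Gapdh as coloured lines and the median of all genes as a dashed line, at each week (columns) with TMM (upper row) and library size scaling (lower row). Library size moves the whole distribution with both genes to the right, so that Gapdh crosses 0 at weeks 4 and 8, while the place of either gene within the distribution stays nearly the same.

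**Figure D3:**
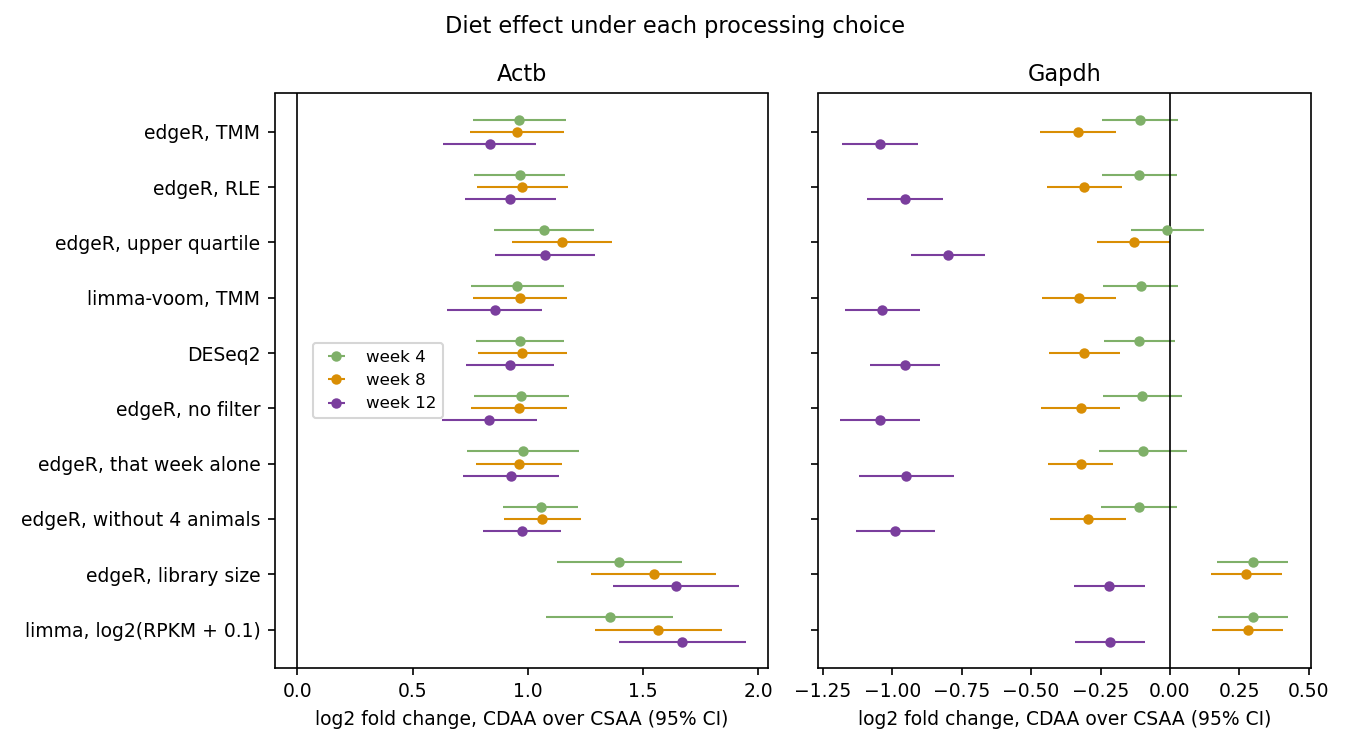
Log2 fold change of Actb (left) and Gapdh (right) between CDAA and CSAA (x axis) under each processing choice (y axis), with points for the estimate and bars for the 95% confidence interval, coloured by week. All Actb estimates are above 0, and the Gapdh estimates of weeks 4 and 8 are above 0 only for library size and RPKM.

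Between the weeks, Actb showed no called change on either diet. With TMM, its log2 difference on CSAA was -0.07 from week 4 to 8, 0.10 from week 8 to 12 and 0.03 from week 4 to 12. On CDAA it was -0.08, -0.02 and -0.10. The 95% confidence intervals of these 6 differences lay within -0.30 and 0.30, and the adjusted p values of edgeR's quasi-likelihood test were 0.402 or higher. The diet effect on Actb was also not called to differ between weeks, with interactions of -0.01 (week 8 against 4), -0.12 (week 12 against 8) and -0.13 (week 12 against 4) on the log2 scale and adjusted p values of 0.966, 0.551 and 0.506.

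Gapdh changed between weeks on both diets. By the interactions given below, the diets were called to differ in the change from week 8 to 12, but not in that from week 4 to 8. On CSAA its log2 difference was -0.26 from week 4 to 8, where the adjusted p of 0.0320 missed the threshold and 0.196% of all tested genes passed it. From week 8 to 12 Gapdh rose by 0.61 (0.48 to 0.75, adjusted p = 6.98e-10), a step at which 30.3% of genes were called, and from week 4 to 12 by 0.36 (adjusted p = 3.72e-05), with 28.0% of genes called. On CDAA, Gapdh fell by 0.48 from week 4 to 8 (-0.61 to -0.34, adjusted p = 1.53e-07), with 38.3% of genes called. From week 8 to 12 the difference was -0.10 (adjusted p = 0.427), with 2.78% of genes called, and from week 4 to 12 Gapdh fell by 0.58 (adjusted p = 1.35e-09), with 49.3% of genes called. With library size, the same differences were -0.19, 0.48 and 0.29 on CSAA and -0.21, -0.01 and -0.22 on CDAA.

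The diet effect on Gapdh therefore differed between weeks by the test of the difference itself. The interaction was -0.71 (-0.91 to -0.52) on the log2 scale between weeks 12 and 8, with an adjusted p of 2.20e-07, and 21.2% of all tested genes were called. Between weeks 12 and 4 it was -0.94 (-1.13 to -0.74) with an adjusted p of 1.55e-09, and 22.1% of genes were called. Between weeks 8 and 4 it was -0.22 with an adjusted p of 0.0714, which missed the threshold that 20.8% of genes passed. With library size these interactions were -0.49, -0.52 and -0.02. The higher level of the control animals at week 12 enters the first 2 of these values, since the mean of CSAA with TMM was 272 ± 22.6 CPM (SD, n = 8) at week 8 and 416 ± 59.9 CPM (SD, n = 8) at week 12. The means of CDAA were 217 ± 8.73 and 202 ± 13.1 CPM at the same weeks.

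By the order of the 6 group means with TMM, Actb fell into the 3 CSAA groups with 371 to 397 CPM and the 3 CDAA groups with 708 to 758 CPM. Neighbouring groups differed by more than the larger of their SDs only at the step between the diets. Gapdh was ordered as CDAA at week 12 (202 CPM), CDAA at week 8 (217), CSAA at week 8 (272), CDAA at week 4 (302), CSAA at week 4 (325) and CSAA at week 12 (416). All neighbours in this order differed by more than the larger SD except the 2 groups of week 4. Per gene length, the RPKM of Gapdh ran from 230 ± 22.97 (SD, n = 8) on CSAA at week 8 to 322 ± 23.99 (SD, n = 8) on CDAA at week 4, and that of Actb from 238 ± 54.96 on CSAA to 742 ± 54.9 on CDAA, both at week 12.

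The ratio of both genes within a library needs no scaling, and it rose with the diet at every week. On CSAA at week 4 there were 1.03 to 1.48 reads on Actb per read on Gapdh (median 1.14), and on CDAA 1.45 to 3.03 (median 2.65). Animal 303 had the lowest CDAA value and was the only one of its group within the range of CSAA. At week 8 the ratio was 0.994 to 1.89 on CSAA (median 1.34) and 2.91 to 3.78 on CDAA (median 3.34). At week 12 it was 0.634 to 1.35 on CSAA (median 0.951) and 3.11 to 3.87 on CDAA (median 3.55). At weeks 8 and 12 the diets did not overlap.

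The mean log2 ratio was higher on CDAA by 1.06 ± 0.14 (SE) at week 4, 1.29 ± 0.10 at week 8 and 1.89 ± 0.16 at week 12, or 2.08-fold, 2.45-fold and 3.70-fold. Permuting the diets exactly over all 12870 splits of 8 and 8 animals (two-sided), p was 0.000311, 0.000155 and 0.000155, and 0.000311, 0.000233 and 0.000233 after Benjamini-Hochberg adjustment over the 3 weeks. A p of 0.000155 is the smallest these splits can give. Per gene length, the ratio of RPKM was below or near 1 on CSAA, with means of 0.924, 1.05 and 0.755 at weeks 4, 8 and 12, and 1.94, 2.54 and 2.70 on CDAA.

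**Figure D4:**
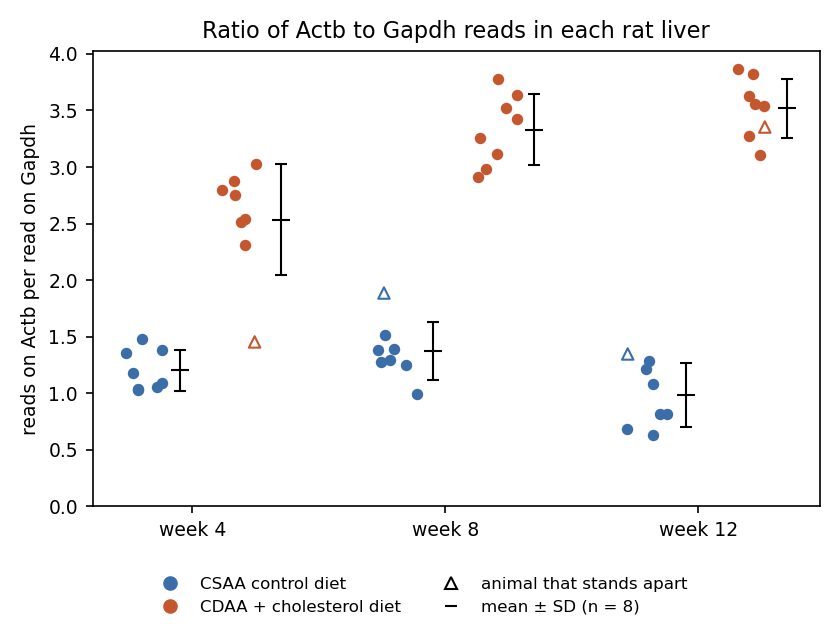
Reads on Actb per read on Gapdh (y axis) in each liver by week (x axis) and diet, where each point is 1 animal, triangles are the 4 animals that stood apart and bars give mean and SD of 8 animals. CSAA animals lie between 0.634 and 1.89 and CDAA animals between 1.45 and 3.87, with 1 CDAA animal of week 4 among the controls.

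Taking the mean of the log2 levels of both genes, as is done when 2 references are combined, left a diet difference that also depended on the scaling. At weeks 4, 8 and 12 it was 0.43 ± 0.06 (SE), 0.32 ± 0.05 and -0.09 ± 0.04 with TMM. With library size it was 0.83 ± 0.10, 0.93 ± 0.08 and 0.73 ± 0.06. In two-sided exact permutation tests, adjusted over these 6 comparisons, p was 0.000373, 0.000233 and 0.0333 with TMM and 0.000233 at each week with library size.

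Over all 48 animals, the SD of the log2 level of Actb was 0.82 with library size and 0.51 with TMM, and within groups 0.28 and 0.20. For Gapdh it was 0.20 and 0.37 over all animals and 0.12 and 0.13 within groups. With library size, 4.37% of the tested genes had a smaller SD over all animals than Gapdh, and 73.4% a smaller one than Actb. With TMM, these shares were 38.4% for Gapdh and 56.8% for Actb. Among the 7540 genes with a mean of at least 10 CPM, nearer to the level of both members, they were 7.23% for Gapdh and 87.8% for Actb with library size and 51.1% and 69.9% with TMM. Whether a diet effect counted as small depended on the scaling for other genes as well, by construction. An absolute log2 fold change under 0.25 at all 3 weeks was found for 924 of 12756 genes with TMM and for 510 with library size, and for 0 genes with both. Under 0.5 these were 3540 and 2362 genes, and 314 with both. The mean log2 TMM factors of the diets differed by 0.61 at week 8 and 0.82 at week 12. This moves every gene by about as much between the scalings. A limit of 0.25 in either direction leaves no room for such a shift, so the 0 was fixed in advance and is no result about the genes. The limit of 0.5 leaves little room at week 12. No p value was calculated for these counts, and Gapdh was among the 2362 genes with library size only.

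The genes most like each member were taken as those with the smallest SD of the log2 ratio to it over the 48 animals, among 7539 other genes with a mean of at least 10 CPM. For Actb this was ENSRNOG00000028498, with an SD of 0.13, and its log2 fold changes between the diets with TMM were 1.20, 0.94 and 1.00. For Gapdh it was ENSRNOG00000015869, with an SD of 0.14 and log2 fold changes of -0.17, -0.46 and -1.01. Since the 48 animals include both diets, fold changes similar to those of the member follow from this choice. The SD of the log2 ratio between Actb and Gapdh was 0.79, and 65.1% of these genes were closer to Actb and 86.5% closer to Gapdh than the other member was.

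Finally, each library was scaled to the reads on 1 of the members in place of TMM, as a quantitative PCR with that reference would do. With TMM, 2543, 3856 and 3917 genes were called between the diets at weeks 4, 8 and 12 (adjusted p under 0.01 and a log2 fold change of 1 or more in either direction, in edgeR's quasi-likelihood test), and 78.6%, 59.9% and 63.2% of them were higher on CDAA. Scaled to Actb, 6556, 6654 and 7338 genes were called, and 9.61%, 11.2% and 17.5% of them were higher. Scaled to Gapdh, 2656, 4056 and 6191 genes were called, and 83.1%, 77.9% and 96.4% were higher. With library size, 3212, 4836 and 5172 genes were called, and 92.3%, 88.7% and 94.0% were higher.

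By construction, scaling to a member takes its own log2 difference off every gene, and the calls moved with it. Of the genes called higher with TMM, 31.5%, 32.3% and 51.9% at weeks 4, 8 and 12 were also called higher when scaled to Actb. All genes called lower with TMM were called lower with Actb as well, the direction in which this scaling moves every gene. Of the genes called lower with TMM, 82.4%, 58.0% and 15.6% were also called lower when scaled to Gapdh. Scaled to the geometric mean of both, 70.4%, 82.5% and 93.3% of the calls with TMM were made in the same direction. No gene was called in opposite directions by TMM and any of these 3 scalings. The shifts are too small to carry a gene from one fold change threshold to the opposite one, so this is no sign of agreement. In whole liver RNA, a different number of cells that contain a transcript and a different amount of it per cell cannot be told apart for either gene.

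**Figure D5:**
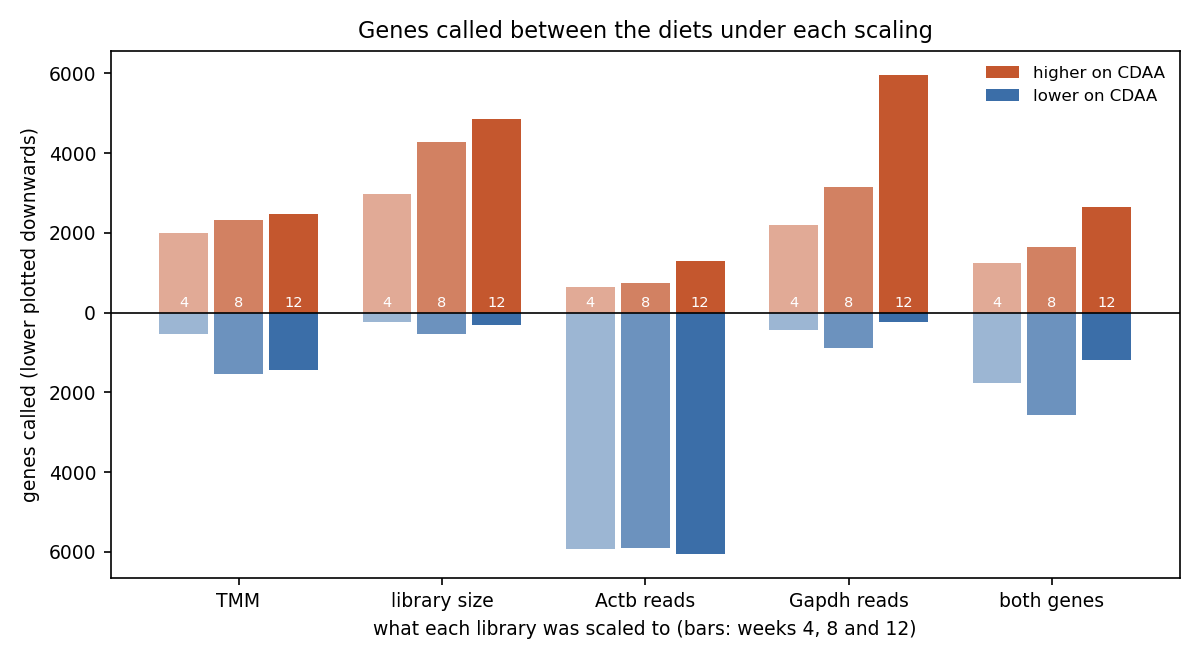
Number of genes called between the diets (y axis; higher on CDAA upwards, lower on CDAA downwards) when libraries are scaled by TMM, to library size, to the reads on Actb, to those on Gapdh or to the geometric mean of both (x axis), with 1 bar for each of weeks 4, 8 and 12. Scaling to Actb puts most calls on the lower side, with 5926 genes at week 4, and scaling to Gapdh puts most on the higher side, with 5966 genes at week 12.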

How the data were processed

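Liver polyA RNA of 48 rats was sequenced as stranded single-end libraries. The authors aligned the reads to Rnor_6.0 (Ensembl 84) with STAR, assigned them to genes with featureCounts and deposited the raw counts. Whether the counting used strand is not given in the sources used here. The deposited RPKM values are scaled by the authors to gene length and library size. Their ratio to CPM was 0.758 to 0.771 for Actb and 0.997 to 0.998 for Gapdh over all animals. The RPKM of Actb were thus close to a rescaling of its counts, but not an exact one.

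Groups were taken from diet and week in the labels, and animals are separate rats. Within groups, 168 pairs of animals differed by a chi-square of at least 3.58 per gene and none was counted as 1 sample. Libraries were pooled for sequencing, and the paper reports pairwise housing of the rats. The labels name no pool, cage or other batch, so none was modelled.

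Counts of all 48 animals were tested in 1 fit with 1 coefficient per diet and week by edgeR 4.0.16 (TMM, quasi-likelihood test, R 4.3.3) over 12756 genes that reached 1 CPM in 5 or more animals of a group. Benjamini-Hochberg adjustment ran over all of them, and an adjusted p under 0.01 was a call. Interactions came from the same fit. limma 3.58.1 with voom, which the study used, and DESeq2 1.42.0 were alternatives, beside other scalings, no filter, each week alone, log2(RPKM + 0.1) and leaving out 4 animals. Scaling to both genes was added after seeing the data. The edgeR and limma-voom fits were tested on simulated counts for the diets at week 12. In these, 200 of 12755 genes changed by 1 on the log2 scale in either direction. edgeR recovered 152 of them with 4 false calls, and limma-voom 151 with 3. Since few genes changed in it, this simulation cannot judge the choice of scaling.

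Members and lists were chosen with earlier results of these data known. Both members were always to be named, and other genes only from lists of symbols fixed with the design: other reference genes, actin cytoskeleton, glycolysis and cell type markers. The identifiers in the tables are not paired with symbols in the sources used here (0 matched), so these lists were not analysed here and only the nearest gene to each member is given, by identifier. The names Actb and Gapdh come with the identifiers that define the pair.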

Additional observations from a re-analysis of the deposited data

Results flagged for a closer look

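Animal 303 of CDAA at week 4 lay farther from its group than Dixon's test at 95% allows in 3 of 30 sets of 8 animals, where chance gives about 1.5. Its Actb level was 399 CPM with library size and 482 CPM with TMM, where the other 7 animals had 737 to 1034 and 710 to 887 CPM. Its log2 ratio of Actb to Gapdh was 0.54, where the others had 1.21 to 1.598. These 3 values share the same Actb reads. The cause was not tested.

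The diet effect on Gapdh differed between weeks by the interaction in edgeR's quasi-likelihood test. It was -0.71 on the log2 scale for week 12 against week 8 and -0.94 for week 12 against week 4.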

How the results depend on the processing

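Of 75 alternative values of the main results, 66 counted as unchanged. For fold changes and the ratio this means the same direction and the same call by the adjusted p alone. The size of the change and its threshold were not compared. Several alternatives share their scaling method with each other or with the main fit, so the values are not independent. For counts it means only a count within 1.5 times the main one, and the genes behind it can differ. Scaled to both genes at week 4, 3003 genes were called and 41.5% of them were higher on CDAA, against 78.6% with TMM. Actb was higher on CDAA under all 9 alternatives at each week, with log2 fold changes of 0.95 to 1.40, 0.96 to 1.57 and 0.83 to 1.67. Gapdh turned from lower to higher with library size (0.30 at week 4 and 0.28 at week 8) and with RPKM (0.30 and 0.28). With upper quartile factors its change at week 8, -0.13, was no longer called (adjusted p = 0.0652, edgeR). Over its alternatives, the largest adjusted p of Gapdh was 0.901, 0.0652 and 0.00175 at weeks 4, 8 and 12, and its log2 fold change at week 12 ranged from -1.04 to -0.22. Scaling itself, by its construction, accounts for these turns. The ratio of both genes was higher by 1.05 to 1.97 on the log2 scale in its 6 alternatives. In all 3 alternatives, 4 differences between weeks and 2 interactions were called, each of Gapdh. Uncalled differences of Actb changed sign with library size, to 0.019, -0.033 and -0.014 on CSAA (weeks 8 against 4, 12 against 8, 12 against 4), to 0.17, 0.064 and 0.23 on CDAA and to 0.15, 0.10 and 0.25 for the interactions, without the 4 animals (-0.033 on CSAA for week 12 against 4, 0.0073 for the interaction of week 8 against 4) and with voom (0.012 for the same interaction). Calls per week moved by over 1.5 times when scaled to Actb (6556, 6654 and 7338 genes) and, at week 12, to Gapdh (6191 genes). Scaling to other reference genes was not run, since these could not be found by name. No paired analysis was possible because the labels give the groups no shared animal numbers. The precision is set by the variation among animals more than by the number of reads.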
